A study of Mus musculus with 6 samples.

Results

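Hypoxia-induced genes outside glycolysis were examined in macrophages that had been differentiated in a dish from mouse bone marrow. The set holds 32 genes known as hypoxia or HIF targets that do not encode glycolytic enzymes, matched by gene name among the 54532 genes of an RNA-seq table. The set, like the lists of other genes used below, was chosen with earlier results of these data known. Cells labelled NSUN2-KO were compared with cells labelled NC, 3 libraries each, and all of them had been brought to the inflammatory M1 state with LPS and IFN-γ. The enzyme NSUN2 methylates cytosines in tRNA and in some other RNAs. The labels give no strain, age, sex or oxygen tension, and say neither how the knockout was made nor what NC stands for. The series' design text counts 3 biological replicates in a group, and in its account of the differential expression test it counts 2 for a condition. All 6 libraries are used here as 3 against 3. No label ties a library to an animal, so p-values measure the spread between these libraries only.

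When oxygen is scarce, prolyl hydroxylases no longer mark the HIF alpha subunits for destruction, and the HIF complex binds short motifs near its target genes. Outside glycolysis these targets supply vascular growth factors, remodel mitochondria, modify collagen, store glycogen and restrain growth. In macrophages LPS also raises HIF activity at normal oxygen, so that many of these genes belong to the M1 response as well.

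Most of the set was higher in NSUN2-KO. Of 31 genes that could be tested, 21 rose and 0 fell (limma adjusted p below 0.05 over all tested genes), where 4.19% of the 9443 tested genes rose and 4.30% fell. At an unadjusted p below 0.05 there was 1 lower gene, Pfkfb4, and limma voom on recovered reads called 24 higher and 0 lower, where it called 8.24% of all tested genes higher and 6.64% lower. On the log2(FPKM + 1) scale the largest fold changes were those of Adm, which encodes the vasodilator peptide adrenomedullin, Ak4, a mitochondrial adenylate kinase, and Bnip3, a mitophagy receptor. Their mean FPKM (fragments per kilobase of gene, scaled to library size) was 2.09, 1.74 and 1.53 times the NC mean. By that ratio of means 2 scarcer genes, Plod2 (1.85) and Stc2 (1.78), stood above Ak4 and Bnip3, as they did with limma voom, so the order depends on the scale. With a pseudocount of 5, Bnip3 (log2 fold change 0.57) and Ak4 (0.52) stood above Adm (0.35). The 21 higher genes ranged from 1.16 to 2.09 times the NC mean with a median of 1.32, and 5 of them reached 1.5 times. In 26 of the 31 genes every NSUN2-KO library lay above every NC library, as in 14.4% of tested genes, and in 1 every NSUN2-KO library lay below, as in 16.7%. The number of higher genes was 13 without NC replicate 3 and 14 without NSUN2-KO replicate 1. Without a filter on low values, all 32 genes were tested and 14 rose, where 0.602% of 24414 genes rose and 0.483% fell. Stc2 and Plod2, both counted among the 21, had NC means under 1 FPKM. They passed the filter of a mean of 1 FPKM over all 6 libraries through the NSUN2-KO values, and neither was called with no filter.

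**Figure D1:**
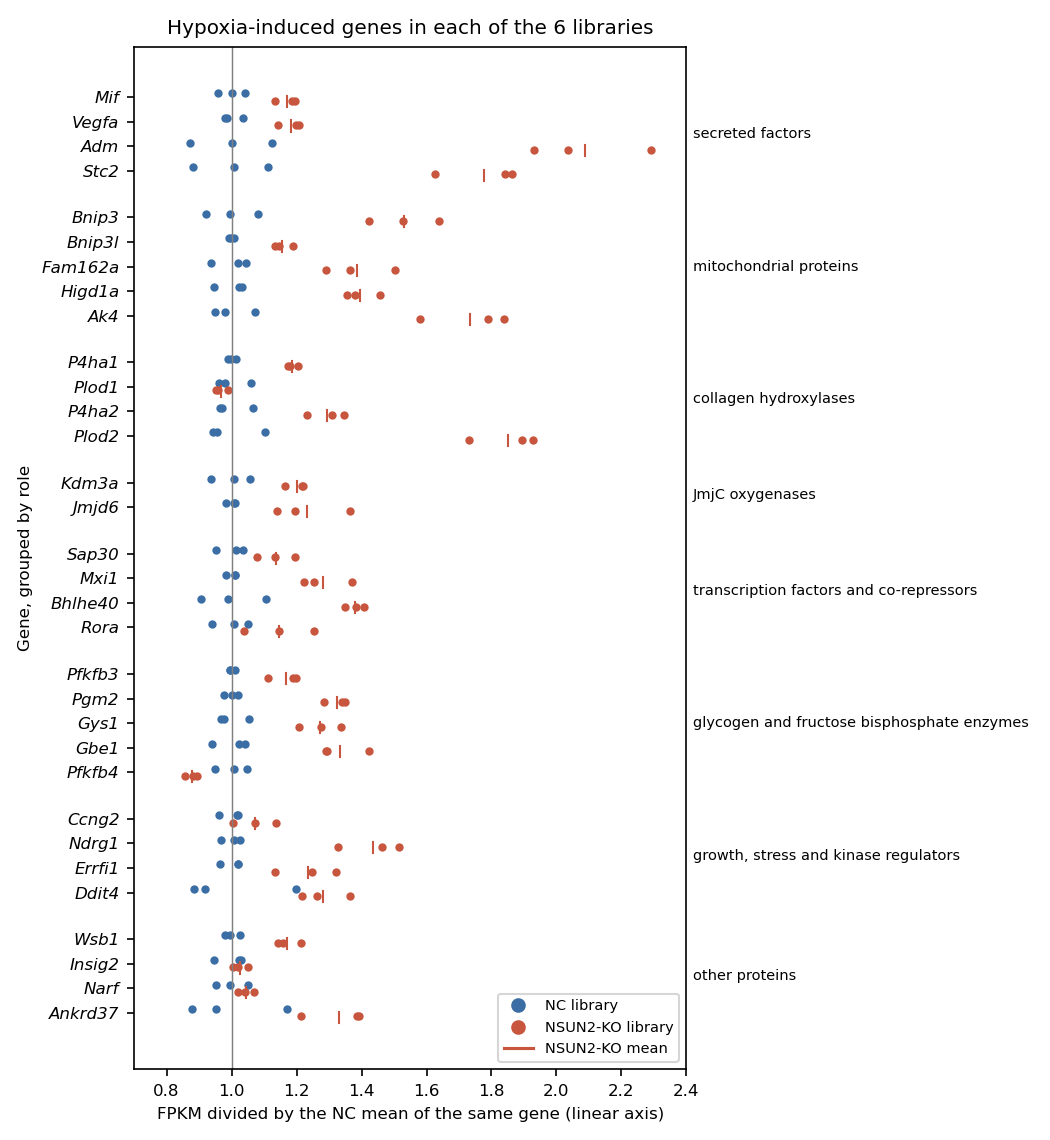
Each point is the FPKM of 1 library divided by the NC mean of the same gene, on a linear axis, for the 32 genes grouped by role. Blue points are NC, red points NSUN2-KO and red ticks the NSUN2-KO means, and the red points of Adm sit near 2 while those of Plod1, Insig2 and Narf overlap the blue ones.

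Median log2 fold change over the 31 genes was 0.25, against -0.01 over all tested genes. Fold changes here are differences of log2(FPKM + 1), NSUN2-KO minus NC, which understate the change of genes near 1 FPKM. Against the NC mean, the median over the genes was 0.27, 0.26 and 0.31 in NSUN2-KO replicates 1, 2 and 3 on the same scale. Each of those 3 libraries had 29 of the 31 genes above the NC mean.

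**Figure D2:**
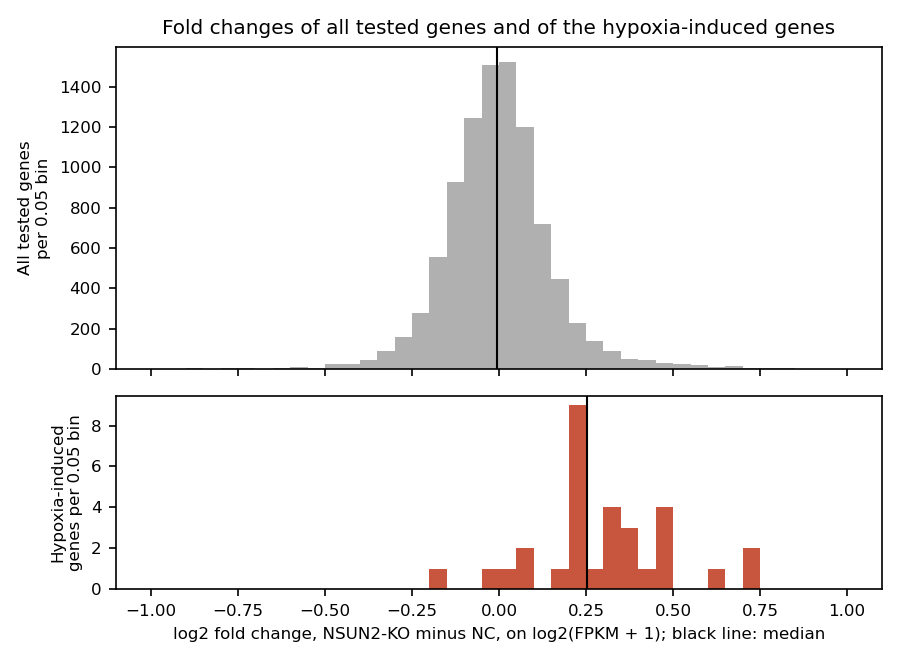
Number of genes per bin of 0.05 in log2 fold change, for all 9443 tested genes (grey, with 10 genes outside the plotted range) and for the 31 tested hypoxia-induced genes (red). Black lines mark the medians of -0.01 and 0.25, and 2 of the red genes lie below 0.

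The core of the HIF binding motif is ACGTG or GCGTG, and both were searched on both strands in the 250 bases before the RefSeq start site (GRCm38.p6) nearest to each gene's 5′ end. Overlapping matches, as in CACGTG, were counted once. RefSeq promoters were matched for 28 of the 32 genes. Those without one were Plod2, Ndrg1, Bnip3l and Bhlhe40, all of them genes that rose. At least 1 match was found in 21 of these 28 (75.0%), against 38.6% of all 32851 promoters and 56.8% of the 8917 promoters of tested genes. At least 2 were found in 14 (50%), against 13.5% of all promoters and 24.1% of those of tested genes. The longer form TACGTG stood in 6 of the 28 (21.4%), against 2.72% of all promoters and 3.27% of those of tested genes. Among the matched genes, 12 of 17 promoters of genes that rose held a match. Of the others, which include the untested Rora, 9 of 11 promoters did, a difference that was not tested. Upstream sequence is shown for the 3 genes with the largest differences in log2(FPKM + 1), for P4ha1, a gene that rose at high expression, and for Gbe1, a gene that rose with no match. Capitals mark the matches, and each stretch ends where the deposited gene or the RefSeq transcript begins, whichever comes first along the strand.
Adm, chr7:110627407-110627656, plus strand: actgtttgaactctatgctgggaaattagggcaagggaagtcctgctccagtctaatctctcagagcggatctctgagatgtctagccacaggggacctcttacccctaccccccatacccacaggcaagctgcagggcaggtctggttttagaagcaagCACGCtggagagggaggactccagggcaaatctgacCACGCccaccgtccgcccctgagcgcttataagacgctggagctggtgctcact
Ak4, chr4:101419039-101419276, plus strand: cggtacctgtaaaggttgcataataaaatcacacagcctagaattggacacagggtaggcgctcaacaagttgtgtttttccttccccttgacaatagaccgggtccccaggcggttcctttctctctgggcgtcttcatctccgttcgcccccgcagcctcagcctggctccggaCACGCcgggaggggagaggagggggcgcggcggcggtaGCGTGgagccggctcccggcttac
Bnip3, chr7:138909520-138909756, minus strand: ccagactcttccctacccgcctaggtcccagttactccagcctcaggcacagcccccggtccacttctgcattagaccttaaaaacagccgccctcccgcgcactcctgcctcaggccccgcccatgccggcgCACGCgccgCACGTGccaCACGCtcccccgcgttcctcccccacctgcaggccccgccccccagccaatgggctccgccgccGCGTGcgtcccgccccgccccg
P4ha1, chr10:59323046-59323295, plus strand: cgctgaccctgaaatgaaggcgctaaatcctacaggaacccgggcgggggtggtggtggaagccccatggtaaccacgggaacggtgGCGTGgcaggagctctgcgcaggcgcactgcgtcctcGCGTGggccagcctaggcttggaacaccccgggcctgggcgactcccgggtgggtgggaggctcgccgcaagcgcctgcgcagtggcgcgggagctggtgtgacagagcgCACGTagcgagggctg
Gbe1, chr16:70313699-70313948, plus strand: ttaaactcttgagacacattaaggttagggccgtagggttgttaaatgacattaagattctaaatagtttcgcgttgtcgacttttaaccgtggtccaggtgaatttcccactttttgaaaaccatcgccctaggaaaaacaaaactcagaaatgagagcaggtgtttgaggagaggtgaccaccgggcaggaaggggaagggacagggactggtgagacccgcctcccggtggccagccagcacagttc
Bnip3 carried 4 separate matches within these bases, Adm and Ak4 carried 2 each, and P4ha1 carried 3. A match is a run of letters and does not show that HIF was bound there.

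All 4 secreted factors rose, Stc2 among them, which passed the filter through its NSUN2-KO values. Adm (chromosome 7, positions 110627661 to 110629820 in GRCm38, plus strand) measured 1.45, 1.67 and 1.88 FPKM in the 3 NC libraries in the order of their replicate numbers, the order used for every gene. The NSUN2-KO libraries measured 3.40, 3.82 and 3.22 FPKM. The lowest knockout value was well above the highest NC value, with NC libraries holding 91 to 124 reads and NSUN2-KO libraries 196 to 221. Its log2 fold change was 0.75 (SE 0.08, limma adjusted p = 0.00240). Stc2, which encodes the secreted glycoprotein stanniocalcin 2, measured 0.965, 1.06 and 0.844 FPKM across NC and 1.56, 1.76 and 1.79 across NSUN2-KO, with no overlap. Its log2 fold change was 0.47 (adjusted p = 0.0141), with an adjusted p of 0.0588 without NC replicate 3 and 0.0739 with no filter. Because Stc2 passed the filter through its NSUN2-KO values, the p of 0.0141 is not independent support for the call. Vegfa, the vascular endothelial growth factor, had a higher FPKM than Adm and a smaller log2 fold change. It measured 19.3, 19.4 and 20.4 FPKM across NC and 23.6, 22.5 and 23.7 across NSUN2-KO (log2 fold change 0.23, adjusted p = 0.0144). The adjusted p of Vegfa was 0.0551 without NC replicate 2 and 0.0677 without NSUN2-KO replicate 1. Mif, the macrophage migration inhibitory factor, was the most abundant of the secreted factors. It measured 88.5, 96.0 and 92.4 FPKM across NC and 109.5, 110.3 and 104.5 across NSUN2-KO (log2 fold change 0.23, adjusted p = 0.0147). The adjusted p of Mif was 0.0665 with no filter, 0.0606 without NC replicate 3 and 0.0678 without NSUN2-KO replicate 1.

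The 5 genes for mitochondrial proteins also rose, by unequal amounts. Ak4, which transfers phosphate between nucleotides in the matrix, measured 7.89, 7.22 and 6.98 FPKM across NC and 13.2, 11.6 and 13.5 across NSUN2-KO (limma log2 fold change 0.72, SE 0.07, adjusted p = 0.00113). Bnip3, which tethers damaged mitochondria to the autophagy machinery, measured 64.4, 55.0 and 59.3 FPKM across NC and 90.9, 97.7 and 84.8 across NSUN2-KO (log2 fold change 0.61, SE 0.07, adjusted p = 0.00246). For both genes every knockout library lay well above the highest NC library. The related receptor Bnip3l, also called NIX, moved less, from 44.2, 43.5 and 43.7 FPKM across NC to 50.2, 52.1 and 49.6 across NSUN2-KO (log2 fold change 0.20, adjusted p = 0.0103). Its adjusted p was 0.0519 without NC replicate 3. A processed pseudogene, Bnip3l-ps, is listed apart at 13.3 ± 1.33 FPKM on average across NC and 13.6 ± 0.789 across NSUN2-KO (SD, n = 3), and the sources used here do not say how reads were split between the copy and Bnip3l. Fam162a, which encodes a mitochondrial protein linked to cell death under hypoxia, measured 31.2, 34.7 and 33.9 FPKM across NC and 42.9, 45.4 and 49.99 across NSUN2-KO (log2 fold change 0.46, adjusted p = 0.00573). Higd1a, a small inner membrane protein that binds the respiratory chain, measured 7.09, 7.75 and 7.68 FPKM across NC and 10.9, 10.2 and 10.4 across NSUN2-KO (log2 fold change 0.43, adjusted p = 0.00291). In neither Fam162a nor Higd1a did a knockout value reach into the NC range.

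Collagen hydroxylases, which use oxygen to modify proline and lysine in procollagen, rose in 3 of 4 cases. P4ha1 and P4ha2 encode alternative catalytic subunits of prolyl 4-hydroxylase. P4ha1 measured 66.2, 67.7 and 66.7 FPKM across NC and 78.5, 80.5 and 78.9 across NSUN2-KO (limma log2 fold change 0.24, SE 0.03, adjusted p = 0.00309). P4ha2 measured 10.7, 11.8 and 10.7 FPKM across NC and 14.9, 13.7 and 14.5 across NSUN2-KO (log2 fold change 0.35, SE 0.05, adjusted p = 0.00945). The groups were separate for both subunits. Among lysyl hydroxylases, Plod2 was scarce and higher in the knockout, while the abundant Plod1 was not. Plod2 measured 0.720, 0.842 and 0.729 FPKM across NC and 1.47, 1.32 and 1.45 across NSUN2-KO, 1.85 times the NC mean (log2 fold change 0.45, adjusted p = 0.0137). Because Plod2 passed the filter through its NSUN2-KO values, this p is not independent support for counting it among the 3. The adjusted p of Plod2 was 0.0660 with no filter, 0.0588 without NC replicate 3 and 0.0611 without NSUN2-KO replicate 1. Plod1 measured 49.5, 54.7 and 50.5 FPKM across NC and 49.4, 49.1 and 51.0 across NSUN2-KO, with overlapping groups (log2 fold change -0.05, 95% interval -0.15 to 0.05, adjusted p = 0.543).

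The JmjC oxygenases Kdm3a, which removes methyl groups from a lysine of histone H3, and Jmjd6, a lysyl hydroxylase of splicing factors, lay on either side of the threshold. Kdm3a measured 11.3, 10.8 and 10.1 FPKM across NC and 13.1, 12.5 and 13.1 across NSUN2-KO (limma log2 fold change 0.24, adjusted p = 0.0276). Its call ended in 5 of the 6 fits without 1 library, with adjusted p of 0.0787 without NC replicate 2, 0.0884 without NC replicate 3, and 0.1002, 0.0518 and 0.0686 without NSUN2-KO replicates 1, 2 and 3. With no filter the adjusted p of Kdm3a was 0.0932. Jmjd6 measured 4.85, 4.97 and 4.96 FPKM across NC and 5.61, 6.72 and 5.89 across NSUN2-KO (log2 fold change 0.25, adjusted p = 0.0522). Its groups were apart, and it passed with limma voom (adjusted p = 0.0103) and after removal of trends over GC content and gene length (adjusted p = 0.0397). Jmjd6 overlaps Mettl23 on the opposite strand, which measured 1.56 ± 0.196 FPKM on average across NC and 1.32 ± 0.276 across NSUN2-KO (SD, n = 3), and the sources used here do not say whether counting used strand. The same holds for Ankrd37 with Ufsp2, Gys1 with Ruvbl2, Fam162a with Wdr5b and Pfkfb3 with Gm10851, whose partners measured 7.27, 2.93, 1.58 and 1.098 FPKM across NC and 7.42, 2.82, 1.38 and 0.902 across NSUN2-KO, none of them called.

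Of the transcriptional regulators, Bhlhe40 and Mxi1 rose. Bhlhe40, a repressor of the basic helix-loop-helix class also known as DEC1, measured 3.13, 3.42 and 3.83 FPKM across NC and 4.87, 4.67 and 4.78 across NSUN2-KO (limma log2 fold change 0.38, adjusted p = 0.0160). Its adjusted p was 0.0727 with no filter, 0.0593 without NC replicate 2 and 0.0664 without NSUN2-KO replicate 1. Mxi1, an antagonist of MYC, measured 5.19, 5.19 and 5.05 FPKM across NC and 6.29, 7.05 and 6.45 across NSUN2-KO (log2 fold change 0.30, adjusted p = 0.0149), with adjusted p of 0.0516 without NC replicate 2, 0.0623 without NC replicate 3 and 0.0569 with no filter. Neither gene had a knockout value inside the NC range. Sap30, a subunit of the SIN3 histone deacetylase complex, measured 15.2, 14.9 and 14.0 FPKM across NC and 15.8, 17.6 and 16.7 across NSUN2-KO, apart by a small gap and not called (adjusted p = 0.0772). Rora, a nuclear receptor, was too scarce to be tested, at 0.550, 0.491 and 0.528 FPKM across NC and 0.5997, 0.656 and 0.544 across NSUN2-KO, with overlapping groups.

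Glycogen enzymes rose together, whereas of the 2 isoenzymes that set fructose 2,6-bisphosphate 1 rose. Gys1, the glycogen synthase of muscle and other tissues, measured 22.1, 23.8 and 21.9 FPKM across NC and 30.2, 27.2 and 28.8 across NSUN2-KO (limma log2 fold change 0.33, adjusted p = 0.00865). Gbe1, the branching enzyme, measured 8.16, 8.02 and 7.37 FPKM across NC and 11.2, 10.2 and 10.1 across NSUN2-KO (log2 fold change 0.38, adjusted p = 0.00865). Pgm2, a phosphoglucomutase that links glucose 6-phosphate to glycogen, measured 43.8, 45.7 and 44.9 FPKM across NC and 60.4, 57.6 and 60.1 across NSUN2-KO (log2 fold change 0.40, SE 0.03, adjusted p = 0.000798). All 3 had separate groups. The row named Pgm2 lies on chromosome 4 (positions 99929414 to 99987294), where RefSeq places the gene it calls Pgm1, so that the symbol is an older one. The row named Pgm1 lies on chromosome 5 and is the gene RefSeq calls Pgm2, and it measured 6.09 ± 0.517 FPKM on average across NC and 7.44 ± 0.313 across NSUN2-KO (SD, n = 3, log2 fold change 0.25, adjusted p = 0.0493), named here after its values were seen. The adjusted p of the row named Pgm1 was 0.0229 with limma voom, 0.0541 after removal of trends over GC content and gene length, and 0.159 with no filter.

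Pfkfb3, whose product favours synthesis of the glycolytic activator fructose 2,6-bisphosphate, was the most abundant gene of the set. It measured 154.9, 152.5 and 152.4 FPKM across NC and 182.4, 170.6 and 183.5 across NSUN2-KO (limma log2 fold change 0.22, adjusted p = 0.0109). Its adjusted p was 0.0531 with no filter, 0.0527 without NC replicate 3 and 0.0568 without NSUN2-KO replicate 1. Pfkfb4 measured 5.13, 5.34 and 4.84 FPKM across NC and 4.56, 4.49 and 4.37 across NSUN2-KO, the only gene of the set with every knockout value below every NC value. It was not called (log2 fold change -0.16, 95% interval -0.28 to -0.03, adjusted p = 0.113).

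Ratios of related genes were compared within each library for 4 pairs, which removes any scaling between libraries. Pfkfb3 was 30.1 ± 1.46 times Pfkfb4 in NC and 40.0 ± 2.00 times in NSUN2-KO (SD, n = 3; exact two-sided permutation p = 0.1, adjusted p = 0.133 over all 4 pairs computed). Plod1 exceeded Plod2 by 67.7 ± 2.404 times in NC and 35.3 ± 1.797 times in NSUN2-KO. The p of this pair is left out because Plod2 passed the filter through its NSUN2-KO values. It did enter the adjustment over the 4 pairs, and so bears on the adjusted p of the others. Bnip3 exceeded Bnip3l by 1.36 ± 0.0964 and 1.798 ± 0.0847 times (exact p = 0.1, adjusted p = 0.133). In these 3 pairs the ratios of the groups did not overlap, and 0.1 is the smallest p that 3 against 3 libraries allow. How often the ratios of other gene pairs stay apart was not computed. Among single tested genes the groups were apart in 14.4% (NSUN2-KO higher) and 16.7% (NSUN2-KO lower). For P4ha1 over P4ha2 the ratios were 6.04 ± 0.276 and 5.53 ± 0.324 with overlapping groups (exact p = 0.2, adjusted p = 0.2).

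**Figure D3:**
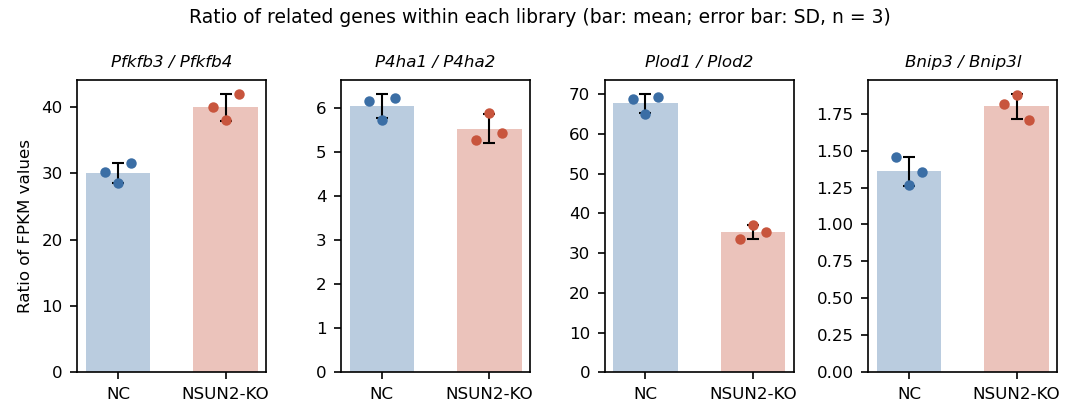
Ratio of the FPKM values of related genes in each library, with bars for means from 0, error bars for SD (n = 3) and points for libraries. The Pfkfb3 to Pfkfb4 and Bnip3 to Bnip3l ratios are higher in all 3 NSUN2-KO libraries, the Plod1 to Plod2 ratio is lower in all 3, and the P4ha1 to P4ha2 points overlap.

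Among the 4 growth, stress and kinase regulators only Ndrg1 passed the test. Ndrg1, a differentiation-related protein that rises under many stresses, measured 8.75, 9.29 and 9.12 FPKM across NC and 13.2, 12.0 and 13.7 across NSUN2-KO (limma log2 fold change 0.48, SE 0.06, adjusted p = 0.00289). Errfi1, a feedback inhibitor of EGF receptor kinases, measured 2.90, 2.90 and 2.74 FPKM across NC and 3.22, 3.55 and 3.76 across NSUN2-KO, apart but not called (adjusted p = 0.0690, and 0.0484 with limma voom). Ddit4, also called REDD1, an inhibitor of mTORC1, measured 2.09, 1.61 and 1.54 FPKM across NC and 2.13, 2.21 and 2.38 across NSUN2-KO (adjusted p = 0.140). NC replicate 1 of Ddit4 lay close to the knockout values, and the gene rested on 106 to 157 reads per library. Ccng2, a cyclin of arrested cells, had overlapping groups at 9.72 ± 0.318 FPKM on average across NC and 10.4 ± 0.648 across NSUN2-KO (SD, n = 3, adjusted p = 0.346).

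Of the remaining genes, Wsb1 rose. Wsb1, a substrate receptor of a ubiquitin ligase, measured 37.7, 36.0 and 36.6 FPKM across NC and 44.6, 42.6 and 42.0 across NSUN2-KO (limma log2 fold change 0.22, adjusted p = 0.0124). Its adjusted p was 0.0581 without NC replicate 3 and also 0.0581 without NSUN2-KO replicate 1. Ankrd37, an ankyrin repeat protein, measured 3.24, 4.33 and 3.52 FPKM across NC and 5.14, 4.48 and 5.12 across NSUN2-KO (log2 fold change 0.34, adjusted p = 0.0653). NC replicate 2 lay just under the lowest knockout value, and without it the adjusted p of Ankrd37 was 0.0337. Insig2, which retains the sterol sensor SCAP in the endoplasmic reticulum, measured 12.5 ± 0.571 FPKM on average across NC and 12.9 ± 0.297 across NSUN2-KO (SD, n = 3, 95% interval of the log2 fold change -0.07 to 0.14). Narf, a nuclear protein that binds prelamin A, measured 12.4 ± 0.605 and 12.95 ± 0.294 FPKM (95% interval -0.05 to 0.16). The groups of Insig2 and Narf overlapped.

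**Figure D4:**
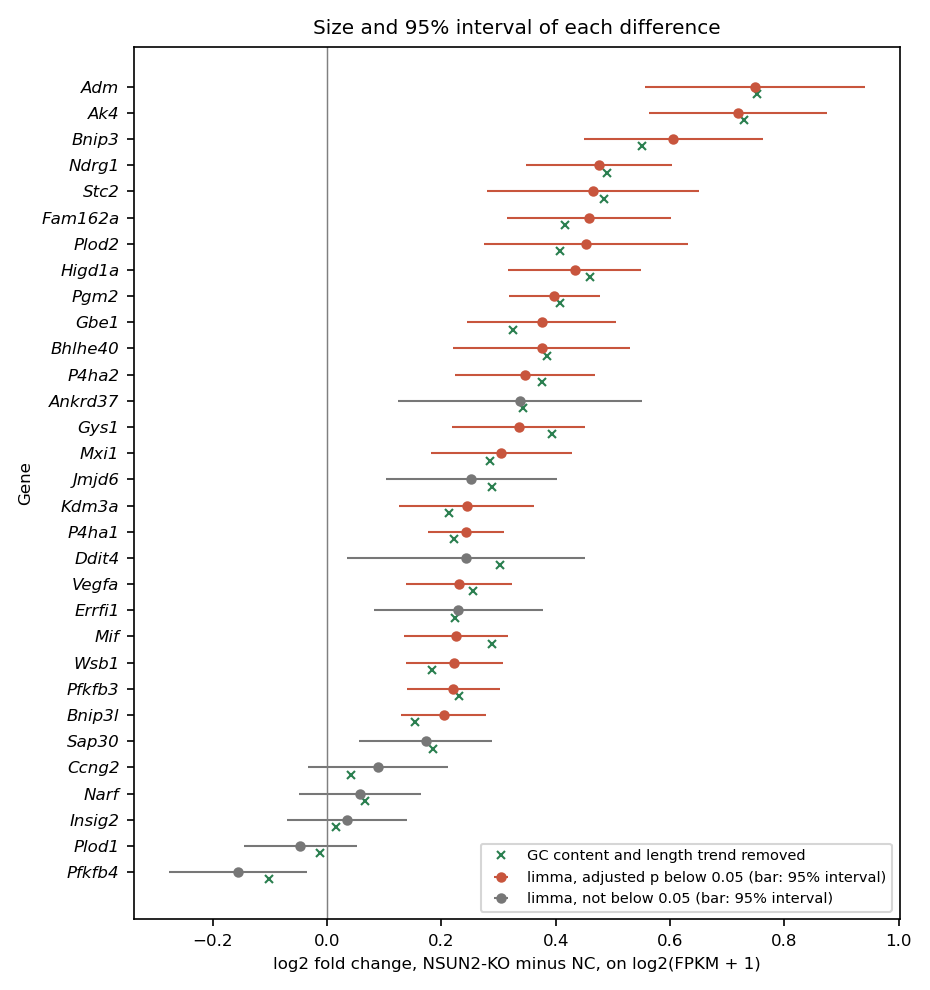
Log2 fold change of the 31 tested genes on log2(FPKM + 1), with 95% intervals from limma (red, adjusted p below 0.05; grey, not) and the value after removal of each library's GC content and gene length trend (green crosses). Adm, Ak4 and Bnip3 lead with 0.75, 0.72 and 0.61, and Pfkfb4 is lowest at -0.16.

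Other hypoxia genes were counted from 3 lists outside the set, to be read against the 4.19% of all tested genes that rose and the 4.30% that fell. Of 7 tested HIF subunits and oxygen sensors, 2 rose and 0 fell in limma (0 lower at an unadjusted p below 0.05, and 0 lower with limma voom). The 2 were Egln3 (log2 fold change 0.67) and Egln1 (0.56), which encode prolyl hydroxylases that are HIF targets themselves. Hif1a mRNA measured 43.7 ± 1.34 FPKM on average across NC and 42.7 ± 1.90 across NSUN2-KO, and its partner Arnt 8.90 ± 0.3004 and 8.79 ± 0.174 FPKM (SD, n = 3), with overlapping groups and adjusted p of 0.685 and 0.858. Epas1, Hif3a and Arnt2 were too scarce to be tested, at 0.194, 0.0544 and 0.141 FPKM in NC and 0.119, 0.0987 and 0.204 in NSUN2-KO. The groups of Hif3a and Arnt2 overlapped. Those of Epas1 were apart, NSUN2-KO lower, on 36 to 52 reads in NC and 17 to 28 in NSUN2-KO (limma adjusted p = 0.269 with no filter). Vhl and Egln2 were not called (log2 fold change 0.12 and -0.12, adjusted p = 0.151 and 0.263). Of 19 tested glycolytic targets 11 rose and 0 fell (1 lower at an unadjusted p below 0.05, 0 with limma voom), with Hk2 (0.54), Pdk1 (0.44), Slc2a1 (0.43) and Pgam1 (0.21) having the smallest p. Leaving out NC replicate 3, or else NSUN2-KO replicate 1, gave a glycolytic count of 5, as did testing with no filter, and leaving out NC replicate 1, or else NSUN2-KO replicate 3, gave 7. Without the mean-variance trend it was 6. Of 17 tested other targets 7 rose and 0 fell (0 lower at an unadjusted p below 0.05 and with limma voom). A further 13 of the 30 genes on this list had means under 1 FPKM and were not tested, so these counts do not cover them. With no filter 29 of the 30 were tested and 0 fell, where 0.483% of 24414 genes fell. Ero1l, an oxidase of the endoplasmic reticulum, had a log2 fold change of 0.78, Selenbp1 0.49 and Tfrc 0.37. Among these targets 2 rose with no filter, 3 rose when NC replicate 3 or either of NSUN2-KO replicates 1 and 2 was left out, and 4 rose when the library left out was NC replicate 2 or NSUN2-KO replicate 3.

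Depth, as reads recovered on the listed genes, overlapped between the groups. It was 38516800 to 45636131 reads per library in NC and 35019033 to 40105614 in NSUN2-KO. The tested hypoxia-induced genes rested on 91 to 55406 reads each. Several other features of the libraries moved with the groups. Nsun2 measured 1.92 ± 0.105 FPKM on average across NC and 1.06 ± 0.260 across NSUN2-KO (SD, n = 3), 0.554 of the NC level (limma log2 fold change -0.51, adjusted p = 0.0228). The adjusted p of Nsun2 was 0.0534, 0.0845 and 0.0695 without NC replicates 1, 2 and 3, 0.0807 and 0.0536 without NSUN2-KO replicates 1 and 3, and 0.113 with no filter. The Y-linked gene Ddx3y measured 6.57 ± 0.433 FPKM in NC and no NSUN2-KO library held a read of it (0 reads), and Xist measured 14.5 ± 0.881 and 30.6 ± 1.20 FPKM (SD, n = 3), so sex composition and genotype cannot be told apart. None of the 32 genes lies on X or Y. Fold changes of the 9433 tested genes with a GC value had a Spearman correlation of -0.374 with transcript GC content, across genes that share libraries. The hypoxia-induced genes had a median GC content of 49.7%, against 49.2%, and with the trend over GC content and gene length removed 22 of them rose and 0 fell, where 4.54% of genes rose and 4.21% fell.

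Markers of the M1 state rose in 6 of 8 genes, Il6, Il12b, Il1b, Tnf, Cxcl10 and Nos2, and their summed level was 3481 to 3548 FPKM in NC and 3852 to 4061 FPKM in NSUN2-KO. The 8 macrophage markers were all detected, and summed to 3929 to 4018 FPKM in NC and 3368 to 3409 FPKM in NSUN2-KO. Cd14 rose (log2 fold change 0.29), Lyz2 (-0.58), Cd68 (-0.20) and Fcgr1 (-0.12) fell, the other 4 were not called, and the median of the 8 was -0.05. Lyz2, the most abundant of them, accounted for most of the lower sum, its mean being 1736 FPKM across NC and 1163 across NSUN2-KO. Neutrophil markers summed to 98.2 to 106.2 and 79.1 to 83.3 FPKM, with 3 of 5 tested lower and Elane at 0. Dendritic cell markers summed to 5.23 to 6.33 and 8.39 to 9.70 FPKM. Of these 7 markers 2 were tested, Ccr7, which was higher, and Xcr1, which was not called (limma adjusted p = 0.0768). The other 5 had means under 1 FPKM. Of the fibroblast markers none reached a mean of 1 FPKM (summed 1.52 to 1.72 and 0.754 to 1.04 FPKM). Of 6 erythroid markers 4 were at 0, Hba-a1, Hbb-bs and Slc4a1 among them, and the list summed to at most 0.131 FPKM in a library. T and B cell markers summed to 0.0345 to 0.149 FPKM in NC and 0.224 to 0.364 in NSUN2-KO, none of them tested. Endothelial markers were expressed, summing to 9.32 to 10.2 FPKM in NC and 9.76 to 10.6 in NSUN2-KO. The endothelial and dividing cell lists had no called gene. In these bulk samples fewer cells of a type and less RNA per cell cannot be told apart, and the part of the M1, neutrophil and dendritic cell markers in the hypoxia result was not tested.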

How the data were processed

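The deposited values are FPKM, which the authors scaled to gene length and library size, for 6 libraries. HISAT2 2.0.5 and featureCounts 1.5.0-p3 are named per the submitters' processing notes, beside DESeq2 1.20.0, fastp and CASAVA 1.8, on build GRCm38. Annotation, strand setting and the roles of the alignment and counting tools were not given in the sources used here. Multiplying FPKM by the deposited gene length and dividing by each library's value of 1 read returned whole reads for 100% of values above 0 (tolerance 0.01 reads).

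Sample titles assigned the columns to groups. Genes averaging 1 FPKM or more over all libraries were fitted as log2(FPKM + 1) in limma 3.58.1 under R 4.3.3, without covariates and allowing for a mean-variance trend. Benjamini-Hochberg adjustment ran over all 9443 tested genes, and a change meant an adjusted p below 0.05. The scripted steps were tested on simulated data, where recovery was required only for folds larger than those of most higher genes here. Alternatives were pseudocounts of 0.1 and 5, no filter or one of 5 FPKM, no trend, median-ratio scaling, limma voom on recovered reads, a replicate block, removal of loess trends (span 0.5) over gene length and transcript GC content from GENCODE, and leaving out each library. Promoters came from RefSeq (GRCm38.p6). Every gene of the set is named, and of the other lists up to 4 genes by smallest p and all HIF subunits, except that some genes of those lists are not reported here. The members and lists were chosen with earlier results of these data known. Python 3.11.15, pandas 2.3.3 and matplotlib 3.10.9 made the tables and plots.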

Additional observations from a re-analysis of the deposited data

How the results depend on the processing

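No alternative gave a lower gene in the set. The number of higher genes stayed between 14 and 24 under the alternatives that kept all 6 libraries, and was 13 to 21 when 1 library was left out, 13 without NC replicate 3. Of the 21 genes that rose, 11 kept the call under every alternative that tested them. They were Adm, Ak4, Bnip3, Ndrg1, Fam162a, Higd1a, Pgm2, Gbe1, P4ha2, Gys1 and P4ha1. Adm did not pass the filter of 5 FPKM and was not tested under it. The replicate block gave 18 higher genes, ending the calls of Plod2 (adjusted p = 0.0556), Kdm3a (0.0702) and Bnip3l (0.0514). Same-numbered libraries did not deviate together (correlations of their deviations from the group means -0.01, -0.03 and 0.00), so they share no more than a number. Over the whole table the block gave 190 higher and 161 lower genes in place of 396 and 406. Combined with removal of trends over GC content and gene length it gave 19, ending the calls of Plod2 (adjusted p = 0.0802) and Kdm3a (0.0735). The cause of these differences was not tested. The median log2 fold change of the set was 0.35 with a pseudocount of 0.1, 0.20 with 5, 0.36 with limma voom and 0.29 after removal of trends over GC content and gene length, with or without the replicate block, and 0.26 to 0.30 without 1 library. A larger pseudocount shrinks fold changes by construction. Insig2 changed sign without NC replicate 2, its log2 fold change being -0.00087 to 0.054 without 1 library. Higher glycolytic targets numbered 5 with no filter, 6 without the trend, 6 with the replicate block and 5 to 11 without 1 library. Higher genes among the other targets numbered 2 with no filter, 3 with the replicate block and 3 to 6 without 1 library. Nsun2 stayed at -0.51 with no filter but lost its call (adjusted p = 0.113), and was -0.61 to -0.44 without 1 library. Over all genes, limma voom called 778 higher and 627 lower, no filter 147 and 118, and no trend 272 and 254. Among the tested genes of the set Adm (91), Ddit4 (106), Plod2 (150) and Stc2 (171) had the fewest reads in any library, which limits their precision.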
